A study of Mus musculus with 4 samples.

Results

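The 10 piRNA pathway genes described here were Piwil1, Piwil2, Piwil4, Tdrd1, Tdrd5, Tdrd6, Tdrd9, Mov10l1, Mael and Ddx4. They were taken by gene symbol from the 32285 genes listed in the count tables, and all 10 were found. The study cultured testicular organoids (TOs), which are cell aggregates rebuilt from dissociated testes of neonatal ICR mice, and compared them with testes of mice that were 28 days old. Single cells of 2 TO libraries and 2 testis libraries, both unsorted, were profiled by 10x Genomics 3′ RNA sequencing. The study and the design labels put the sequenced TOs at 28 days, while the dissociation protocol of the labels names day 21 TOs. The organoids of the study were made in independent batches, and the batch of each library is not given in the sources used here. The p-values given here therefore measure only the spread between these libraries.

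PIWI proteins are germ line Argonaute proteins that bind piRNAs, small RNAs that silence transposons and guard the germ line genome. Long precursor transcripts are selected and cut at the mitochondrial surface, loaded onto PIWI proteins in granules called nuage, and held there by Tudor domain proteins. In the mouse testis, one set of piRNAs acts before meiosis with PIWIL2 and PIWIL4, and another, the pachytene piRNAs, accumulates in pachytene spermatocytes and round spermatids with PIWIL1 and PIWIL2.

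The libraries held 11826 to 14643 barcodes and 74988295 to 119966959 UMIs (unique molecular identifiers, each counting 1 captured transcript). After removal of doublets and filtering, TO replicates 1 and 2 kept 991 and 703 germ cells, and testis replicates 1 and 2 kept 7185 and 7948. Germ cell clusters were built without any piRNA pathway gene and named from 44 germ cell markers, so each stage name stands for cells that resemble that stage, and the suffix "-like" is left out hereafter. Undifferentiated spermatogonia numbered 236, 107, 183 and 64 in TO replicates 1 and 2 and testis replicates 1 and 2, differentiating spermatogonia 380, 268, 440 and 167, and leptotene and zygotene spermatocytes 198, 249, 384 and 379. Pachytene spermatocytes numbered 83 and 31 in TOs against 1879 and 1673 in testes, round spermatids 12 and 14 against 2827 and 1954, and elongating spermatids 0 and 0 against 167 and 2480. Pairs of libraries shared 30 to 55 cell barcodes. Over all germ cells, which mix the stages, the median was 7336 and 8651 UMIs per cell in TOs against 2264 and 3088 in testes. Medians were also higher in TOs in spermatogonia and in leptotene and zygotene spermatocytes. They were 1997 and 4734 against 1944 and 2107 in pachytene spermatocytes, and 1787 and 3869 against 2267 and 2628.5 in round spermatids. Levels are therefore given as CPM, counts per 1000000, the UMIs of a gene scaled to that many UMIs summed over the cells of a stage in 1 library. In such sums, fewer cells with transcripts of a gene and fewer of its transcripts per such cell cannot be told apart.

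Transcripts of the members were also counted in somatic cells, as free RNA in droplets gives, and these levels differed between the conditions. Tdrd6 was present at 3.59 and 1.69 CPM in the somatic cells of TO replicates 1 and 2, against 58.8 and 45.5 CPM in those of testis replicates 1 and 2, and Piwil1 at 2.36 and 0.668 against 22.6 and 15.4 CPM. Mael and Ddx4 reached 145 and 96.4 CPM and 96.7 and 84.6 CPM in somatic cells of the testes. For each of these 4 genes, both testis libraries lay above both TO libraries in somatic cells. In the other direction, the 28 somatic markers summed to 1306 and 340 CPM in TO germ cells and to 113 and 110 CPM in testis germ cells, with 26, 26, 28 and 28 of them above 0. By stage, TO replicates 1 and 2 and testis replicates 1 and 2 had 647, 261, 127 and 83.3 CPM of these markers in undifferentiated and 679, 294, 112 and 63.2 CPM in differentiating spermatogonia. The sums were 720, 316, 84.3 and 72.9 CPM in leptotene and zygotene spermatocytes, 734, 316, 97.4 and 106 CPM in cluster 10 and 642, 318, 75.4 and 57.1 CPM in cluster 15 of these, and 2931, 1414, 82.1 and 108 CPM in round spermatids. TO replicate 1 was highest in each. The part of either in the comparisons that follow was not tested, other than by taking off UMIs per somatic cell.

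The promoters of the members are shown because 6 of the 8 members with a RefSeq promoter carried the same short motif. Any link between a motif and the levels of these genes was not tested. The motif was the E-box CACGTG, a palindrome that reads the same on both strands. It was searched in the 250 bases before each RefSeq start on GRCm38.p6, where Piwil2 and Tdrd6 had no entry. Of the 11 promoters of these 8 members, 7 held it, where 2 promoters of Tdrd1 overlapped and shared 1 match, against 6.02% of all 32851 promoters of the same length. The motif AACGG, part of the site bound by MYB proteins and searched on both strands, was found in 5 of the 8 members. It was in 5 of their 11 promoters, against 14.5% of all promoters. No AACGG of a member shared a base with a CACGTG, and a match describes these letters only. The stretches printed here lie outside annotated exons, run 5′ to 3′ on the strand of the gene, and have CACGTG in capitals.
Piwil1, plus strand, chr5:128736030-128736173: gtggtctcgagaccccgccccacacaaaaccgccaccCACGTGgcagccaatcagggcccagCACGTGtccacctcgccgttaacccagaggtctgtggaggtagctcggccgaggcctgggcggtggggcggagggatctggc
Tdrd1, plus strand, chr19:56825959-56826208: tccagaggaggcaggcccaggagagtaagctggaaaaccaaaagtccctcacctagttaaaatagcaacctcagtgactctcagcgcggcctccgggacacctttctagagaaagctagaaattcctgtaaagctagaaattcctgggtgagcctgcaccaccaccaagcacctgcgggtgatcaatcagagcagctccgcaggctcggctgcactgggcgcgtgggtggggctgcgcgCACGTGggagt
Tdrd9, plus strand, chr12:111971309-111971558: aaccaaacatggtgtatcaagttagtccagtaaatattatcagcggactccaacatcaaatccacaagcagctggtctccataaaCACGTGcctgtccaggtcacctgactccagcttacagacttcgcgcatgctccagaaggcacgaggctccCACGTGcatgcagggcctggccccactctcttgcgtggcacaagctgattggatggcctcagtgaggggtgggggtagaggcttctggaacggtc
Mov10l1, plus strand, chr15:88982744-88982908: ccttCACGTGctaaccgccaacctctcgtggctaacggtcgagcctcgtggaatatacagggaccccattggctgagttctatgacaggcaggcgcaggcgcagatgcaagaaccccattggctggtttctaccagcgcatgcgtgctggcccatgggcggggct
Mael, minus strand, chr1:166238748-166238994: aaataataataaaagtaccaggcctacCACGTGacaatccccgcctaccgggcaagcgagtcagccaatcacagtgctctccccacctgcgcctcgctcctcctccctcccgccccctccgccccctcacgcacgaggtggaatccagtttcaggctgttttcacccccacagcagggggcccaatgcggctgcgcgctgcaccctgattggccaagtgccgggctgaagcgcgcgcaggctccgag
The motif began 179 and 154 bases before the RefSeq start of Piwil1, 11 bases before that of Tdrd1, 165 and 95 bases before that of Tdrd9, 246 bases before that of Mov10l1, 223 bases before that of Mael and 29 bases before that of Ddx4. The promoters of Piwil4 and Tdrd5 held no CACGTG in this window.

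**Figure D1:**
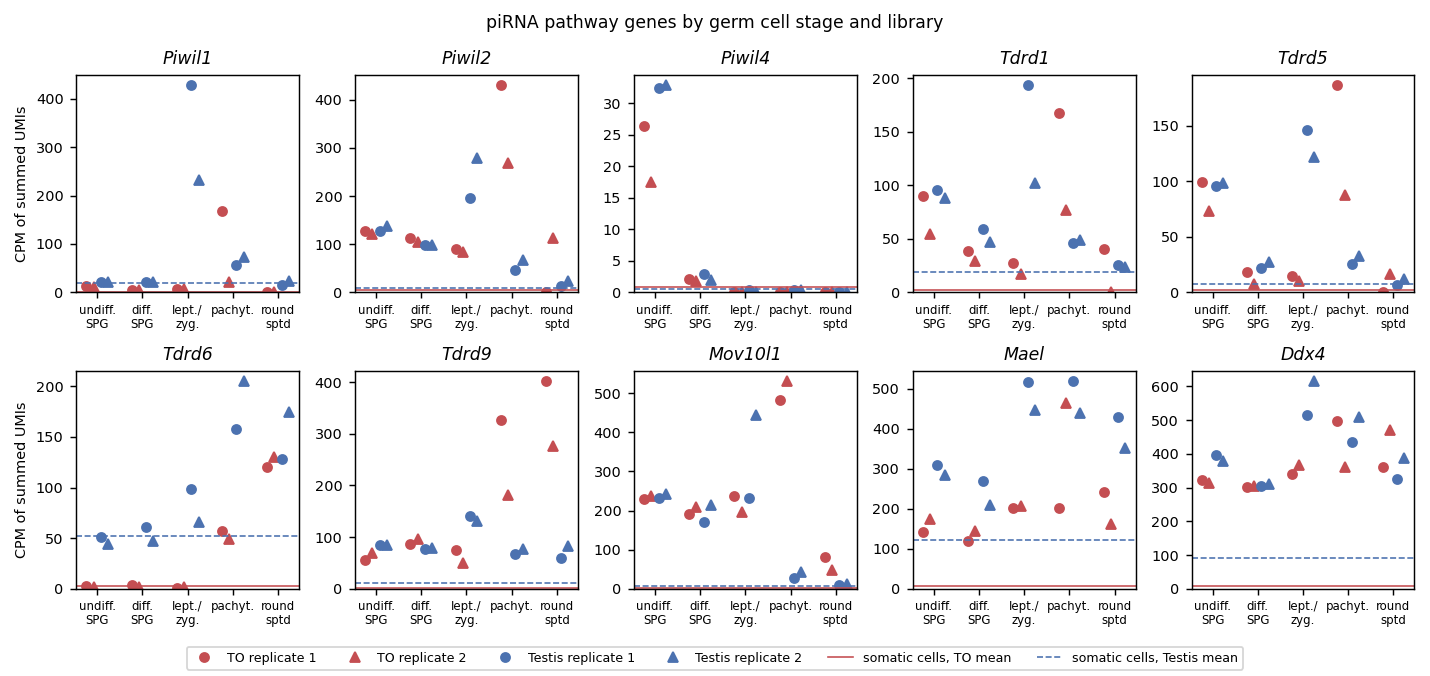
Summed UMIs of each member in CPM (linear axes from 0) by germ cell stage, with 1 point for each library and lines for the mean of the somatic cells of the same condition. In the clusters named leptotene and zygotene spermatocytes, Piwil1 lies at 429 and 233 CPM in testes and at 6.78 and 7.11 CPM in TOs. In testes its mean was 12.8 CPM in cluster 10 of this stage and 524 CPM in cluster 15. Round spermatid points of TOs rest on 12 and 14 cells.

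Among the PIWI proteins, Piwil4 was the member with the narrowest range of stages. Piwil4 (chr9:14696230-14740733, minus strand), which encodes the nuclear PIWI protein that directs DNA methylation of transposons in fetal germ cells, lay at 26.4 and 17.5 CPM in undifferentiated spermatogonia of TO replicates 1 and 2, against 32.4 and 32.9 CPM in those of testis replicates 1 and 2. In differentiating spermatogonia it was at 2.06, 1.86, 2.91 and 2.01 CPM. No Piwil4 UMI was found in TO spermatocytes or round spermatids, and 1 UMI was found in leptotene and zygotene spermatocytes of the testes. All 4 libraries thus had Piwil4 mainly in undifferentiated spermatogonia, and the testis libraries lay above the TO libraries there by less than the threshold (edgeR, log2 fold change -0.62, SE 0.36, adjusted p = 0.317). The gene overlaps the antisense gene Gm10706 on the other strand, and the sources used here do not state the strand setting of the counting.

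Piwil2 (chr14:70372477-70429383, minus strand) encodes MILI, the PIWI protein present from fetal germ cells to round spermatids. In undifferentiated spermatogonia it lay at 127 and 121 CPM in TOs and 127 and 138 CPM in testes, and in differentiating spermatogonia at 112 and 105 against 97.3 and 98.3 CPM. Levels in spermatogonia thus differed little between the conditions (log2 fold changes -0.17 and 0.10, SE 0.21 and 0.18, edgeR adjusted p = 0.696 and 0.783). The conditions parted in leptotene and zygotene spermatocytes, with 89.4 and 83.2 CPM in TOs and 196 and 280 CPM in testes. Cluster 10 held 84.8% and 84.3% of these cells in TOs and 59.6% and 44.3% in testes. Means of TOs and testes were 58.3 and 87.3 CPM in cluster 10, and 241 and 321 CPM in cluster 15, where the libraries overlapped. Piwil2 lay the other way round in pachytene spermatocytes, with 431 and 268 CPM in TOs and 45.6 and 67.5 CPM in testes.

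Piwil1 (chr5:128702524-128755474, plus strand) encodes MIWI, the partner of pachytene piRNAs. In spermatogonia of the testes it was close to its level in somatic cells (22.6 and 15.4 CPM), with 21.0 and 21.9 CPM in undifferentiated and 21.3 and 22.1 CPM in differentiating spermatogonia. In the clusters named leptotene and zygotene spermatocytes it stood at 429 and 233 CPM in testis replicates 1 and 2. It stayed at 6.78 and 7.11 CPM in those of TO replicates 1 and 2. In testes the mean was 12.8 CPM in cluster 10 of this stage and 524 CPM in cluster 15. The testis cells of cluster 15 had high Ldhc, a pachytene marker. In pachytene spermatocytes the 4 libraries overlapped, with 168 and 21.9 CPM in TOs (35 and 4 UMIs) and 57.2 and 72.1 CPM in testes. Cells with at least 3 Piwil1 UMIs numbered 4 and 6 among the 991 and 703 germ cells of TOs. In testes they numbered 124 and 148 among 7185 and 7948 germ cells, which had a different mix of stages. Among somatic cells of TO replicates 1 and 2 and testis replicates 1 and 2 they numbered 0, 0, 4 and 2.

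Of the Tudor domain proteins, which bind methylated arginines of PIWI proteins, Tdrd1 and Tdrd5 followed a similar course. Tdrd1 (chr19:56826209-56870012, plus strand), a MILI partner in the nuage between mitochondria, was at 90.1, 54.3, 95.5 and 87.7 CPM in undifferentiated spermatogonia of TO replicates 1 and 2 and testis replicates 1 and 2. Tdrd5 (chr1:156255296-156303664, minus strand), which helps to select pachytene piRNA precursors, was at 99.7, 73.6, 95.5 and 98.6 CPM. Both were lower in differentiating spermatogonia of every library. In leptotene and zygotene spermatocytes Tdrd1 stood at 27.1 and 17.6 CPM in TOs and 194 and 102 CPM in testes, and Tdrd5 at 14.9 and 10.0 CPM in TOs and 146 and 121 CPM in testes. In cluster 10 of this stage, means of TOs and testes were 14.5 and 17.2 CPM for Tdrd1, which overlapped, and 4.59 and 16.9 CPM for Tdrd5. In cluster 15 they were 65.0 and 227 CPM for Tdrd1 and 55.7 and 203 CPM for Tdrd5. In pachytene spermatocytes the TO libraries did not overlap the testis libraries and were higher, with 168 and 76.6 against 45.7 and 49.3 CPM for Tdrd1 and 187 and 87.6 against 25.9 and 32.5 CPM for Tdrd5. Tdrd5 overlaps the antisense gene 4930518J20Rik.

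Tdrd6 (chr17:43615335-43630299, minus strand), a scaffold of the chromatoid body of late spermatocytes and spermatids, was near 0 in TO germ cells before pachytene. It had 5 and 2 UMIs in undifferentiated spermatogonia of TO replicates 1 and 2, 12 and 3 in differentiating spermatogonia, and 1 and 5 in leptotene and zygotene spermatocytes. Testis spermatogonia held 43.8 to 61.0 CPM, beside 58.8 and 45.5 CPM in the somatic cells of the same libraries. Levels reached 57.5 and 49.3 CPM in pachytene spermatocytes of TOs against 158 and 205 CPM in testes, and 120 and 130 CPM in round spermatids of TOs (3 and 8 UMIs) against 129 and 175 CPM in testes. Tdrd9 (chr12:111971559-112068854, plus strand), a helicase with a Tudor domain that acts with PIWIL4, was at 75.9 and 50.6 CPM in leptotene and zygotene spermatocytes of TOs against 141 and 130 CPM in testes, and at 326 and 181 against 68.2 and 77.6 CPM in pachytene spermatocytes. Within clusters 10 and 15 of the leptotene and zygotene stage, Tdrd9 overlapped between the conditions. Its means there were 47.5 and 150 CPM in TOs and 47.2 and 185 CPM in testes. Tdrd9 overlaps Rd3l on the other strand.

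Among the helicases and other nuage proteins, Mov10l1 (chr15:88982909-89055152, plus strand), the helicase that binds piRNA precursors and feeds them into processing, was even across spermatogonia, with 229 and 238 CPM in undifferentiated spermatogonia of TOs and 231 and 243 CPM in those of testes. It overlapped between the conditions in leptotene and zygotene spermatocytes (237 and 196 against 233 and 443 CPM) and stood apart in pachytene spermatocytes, with 484 and 531 CPM in TOs and 28.0 and 42.3 CPM in testes. In pachytene cells assigned by correlation to testis clusters, Mov10l1 was at 230 and 0 CPM in TOs (21 and 0 UMIs) against 26.7 and 42.9 CPM, and the conditions overlapped. Mael (chr1:166201201-166238747, minus strand), a nuage protein needed for transposon silencing, was at 141 and 173 CPM in undifferentiated spermatogonia of TOs and 310 and 285 CPM in those of testes. Its testis values held 145 and 96.4 CPM in somatic cells. Ddx4 (chr13:112598333-112652475, minus strand), the vasa helicase found in germ cells of every stage shown here, ranged from 301 to 498 CPM over the stages of TOs and from 306 to 615 CPM over spermatogonia, spermatocytes and round spermatids of testes. In elongating spermatids, which only the testes held, Ddx4 fell to 82.4 and 68.4 CPM, and Mael stood at 340 and 163 CPM.

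Over all germ cells, TO against testis, Piwil1, Tdrd6 and Mael were lower in TOs and Mov10l1 was higher. Piwil1 had 13.3 and 12.1 CPM in the TO replicates against 61.6 and 52.2 CPM in the testis replicates, and Tdrd6 had 6.24 and 7.21 against 130 and 109 CPM. The groups did not overlap for either gene, and the fold changes were -2.98 (SE 0.27, adjusted p = 0.000326) and -4.96 (SE 0.34, adjusted p = 0.000238) on the log2 scale (edgeR quasi-likelihood test on summed UMIs, Benjamini-Hochberg adjustment over all genes tested). Mael was at 147 and 194 against 459 and 302 CPM (log2 fold change -1.93), and Mov10l1 at 208 and 214 against 48.4 and 48.8 CPM (log2 fold change 1.29). The mean CPM of Mov10l1 in TOs was 4.34 times that in testes, which is more than this fold change. CPM scale by the plain total of UMIs, whereas the edgeR folds also use a normalization factor for each sum (TMM). Folds and CPM can therefore differ in size, here and in the comparisons that follow. Piwil2 (114 and 103 against 44.0 and 44.1 CPM) and Piwil4 (8.46 and 3.93 against 1.46 and 0.548 CPM) had both TO libraries above both testis libraries, with adjusted p = 0.162 and 0.0314, and were not called. The germ cells included 60 and 14 TO cells and 136 and 132 testis cells of cluster 17, which was left unnamed and led by Sertoli cell genes such as Aard and Cldn11. Without this cluster and cluster 0, which also had a somatic marker among its leading genes, 4 members were called, and the log2 fold change was -2.92 for Piwil1, -4.89 for Tdrd6, -1.85 for Mael and 1.31 for Mov10l1. A gene was called where its adjusted p was below 0.01 and its log2 fold change above 1 in either direction. By this rule 3 of the 10 members were lower and 1 was higher, against 31.3% and 17.7% of the 20436 genes tested. The median log2 fold change was -0.54 for the members and -0.31 for all genes. These sums mix the stages, and TOs held few cells from pachytene onwards, so the comparisons within stages follow. Without TO replicate 1, and likewise without TO replicate 2, 2 members were called.

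In spermatogonia, the early members stood close together in the conditions, and Tdrd6, Mael and Piwil1 were called. Tdrd6 was lower in TOs in undifferentiated spermatogonia (2.40 and 1.75 against 50.8 and 43.8 CPM, log2 fold change -4.50, SE 0.49, edgeR adjusted p = 3.64e-07), as was Mael (log2 fold change -1.01, SE 0.22, adjusted p = 0.00174). In differentiating spermatogonia Tdrd6 (4.12 and 1.40 against 61.0 and 47.2 CPM) and Piwil1 (4.47 and 4.19 against 21.3 and 22.1 CPM) were called lower, with log2 fold changes of -4.26 and -2.36. The counts were 2 of 10 members tested, against 9.65% of all genes called lower, and 2 of 9 members tested, against 12.9%. The testis values of Tdrd6 and Piwil1 in spermatogonia were close to those of somatic cells of the same libraries. When the mean UMIs per somatic cell were taken off each germ cell, an alternative chosen after seeing the data, 0 members were called in either kind of spermatogonia. Tdrd6 then had log2 fold changes of -4.97 in undifferentiated and -3.89 in differentiating spermatogonia (edgeR adjusted p = 0.0142 and 0.0253). Mael had -0.67 in undifferentiated spermatogonia (adjusted p = 0.126). The other members called in neither stage included Piwil2, Tdrd1, Tdrd5, Tdrd9, Mov10l1 and Ddx4, whose log2 fold changes lay between -0.91 and 0.19.

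**Figure D2:**
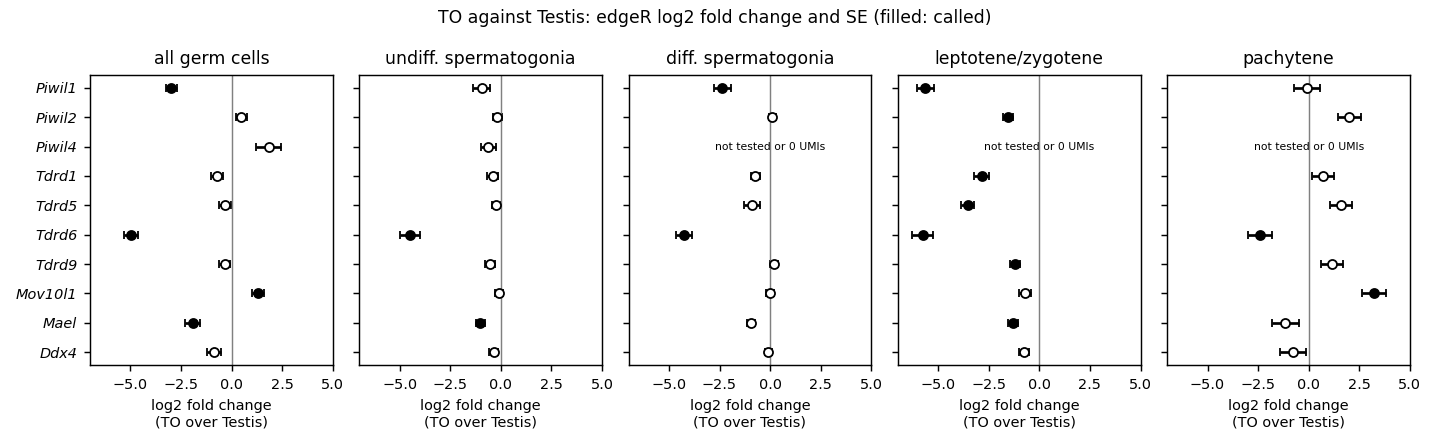
Fold change of each member between TO and testis (log2, points) with its SE (bars) from edgeR, over all germ cells and in 4 stages. Filled points are called. The 7 filled points in leptotene and zygotene spermatocytes lie between -1.20 and -5.77, and Mov10l1 lies at 3.24 in pachytene spermatocytes.

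In the clusters named leptotene and zygotene spermatocytes, 7 of the 9 members tested were lower in TOs and 0 were higher, against 20.3% of the 11804 genes tested that were lower. The largest differences were those of Tdrd6 (0.678 and 2.09 against 98.4 and 65.5 CPM, log2 fold change -5.77, SE 0.51, edgeR adjusted p = 6.16e-06) and Piwil1 (log2 fold change -5.65, SE 0.41, adjusted p = 3.45e-06). Tdrd5 and Tdrd1 followed with -3.54 (SE 0.32) and -2.85 (SE 0.37). Piwil2, Mael and Tdrd9 were lower by smaller amounts, with log2 fold changes of -1.53, -1.32 and -1.20. For each of these 7 genes both TO libraries lay below both testis libraries. Mov10l1 (-0.71, adjusted p = 0.0641) and Ddx4 (-0.75, adjusted p = 0.0312) were not called, and Piwil4 was not tested. The median was -1.53 for the members tested and -0.07 for all genes. The 7 calls were also made with the UMIs per somatic cell taken off. With either TO library left out, 0 members were called, and with no upper limits on genes and UMIs per cell 1 member was called.

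The cells of this stage were not spread alike over its 2 clusters. Cluster 10, led by Pbx3, Sdk1, Dmc1 and Prdm9, held 84.8% and 84.3% of these cells in TO replicates 1 and 2, against 59.6% and 44.3% in the testis replicates, and cluster 15, led by Gm10505, Gml and Meiob, held the others. The stage name went against the markers of cluster 15 in the testes, where the pachytene marker Ldhc was at 4344 and 1903 CPM and Prdm9, a marker of early meiosis, at 7.39 and 5.77 CPM. In the TO cells of cluster 15 Ldhc was at 129 and 115 CPM and Prdm9 at 35.6 and 74.8 CPM. The stage as a whole therefore set TO cells mostly of cluster 10 against testis cells of which 40.4% and 55.7% were of cluster 15. Within cluster 10, Tdrd6 and Piwil1 were lower in TOs (log2 fold changes -5.27 and -2.73), 2 of 9 members tested against 13.8% of all genes. In that cluster Piwil1 was at 1.60 and 1.98 against 10.9 and 14.7 CPM, and the testis values lay below those of somatic cells. Tdrd5 was at 7.19 and 1.98 against 10.9 and 22.8 CPM, Tdrd1 at 21.6 and 7.43 against 26.3 and 8.04 CPM, and Piwil2 at 55.1 and 61.4 against 87.6 and 87.1 CPM, and none of the 3 was called. A difference between the 2 clusters in these folds was not tested. With any 1 library left out, only Tdrd6 was called.

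Within cluster 15 the meiotic rise of Piwil1 was visible in both conditions at unequal height. Piwil1 had 35.6 and 34.7 CPM in the TO replicates (8 and 13 UMIs) against 710 and 337 CPM in the testis replicates, a log2 fold change of -4.03 (SE 0.51, edgeR adjusted p = 3.24e-06). Tdrd1 (57.9 and 72.2 against 307 and 147 CPM) and Tdrd5 (57.9 and 53.4 against 237 and 169 CPM) were also lower, with log2 fold changes of -1.91 and -1.98. Tdrd6 had 0 UMIs in either TO library and 159 and 92 in the testes, so it was at least 17.2-fold lower in TOs by a floor of 3 UMIs over both libraries. This bound counts all testis UMIs, and Tdrd6 had a mean of 88.3 CPM in these testis cells and 52.1 CPM in somatic cells of the testes. With the UMIs per somatic cell taken off, Tdrd6 was still called. Piwil1, Tdrd1, Tdrd5 and Tdrd6, 4 of 9 members tested, stand against 11.9% of all genes called lower. Piwil2 (281 and 200 against 269 and 372 CPM), Mov10l1 (566 and 313 against 267 and 562 CPM) and Tdrd9 (187 and 112 against 193 and 178 CPM) were not called, and the libraries of the conditions overlapped for all 3. With the UMIs per somatic cell taken off, and without either TO library, 2 members were called.

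Stage markers moved with these results. In cluster 15, Dmc1, the recombinase of early meiosis, was at 477 and 933 CPM in TOs and at 44.4 and 101 CPM in testes, and Stra8, which opens meiosis, at 84.7 and 82.8 against 1.48 and 5.13 CPM. Hspa2, a marker of later spermatocytes, was at 602 and 534 against 2133 and 1717 CPM. The TO cells of this cluster therefore carried more of the early and less of the late markers. Each germ cell was also assigned to the testis cluster with the highest Spearman correlation over genes outside the pathway, which gave 73, 27, 130 and 191 cells for cluster 15. Dmc1 was then at 180 and 127 against 26.2 and 93.5 CPM, closer but not equal. Of the other leptotene and zygotene markers, Hormad1 also stayed higher in TOs, while Meiob, Msh4, Rad51ap2 and Sycp1 overlapped. Prdm9 overlapped too, at 0 and 4.23 against 0 and 4.09 CPM. Of the pachytene markers, Ldhc, Clgn and Tbpl1 stayed lower in TOs, with Ldhc at 975 and 1006 against 4460 and 1953 CPM. Cntd1 (191 and 241 against 191 and 277 CPM) and Pou5f2 (3.68 and 54.9 against 12.7 and 16.4 CPM) overlapped. Hspa2 was at 776 and 1783 against 2242 and 1793 CPM. In these cells Piwil1 was at 121 and 186 CPM in TOs and 757 and 358 CPM in testes, and it was the only member called (log2 fold change -1.93, SE 0.54, edgeR adjusted p = 0.00924), 1 of 9 against 2.57% of all genes. Tdrd1 (125 and 156 against 324 and 154 CPM), Tdrd5 (140 and 139 against 254 and 173 CPM) and Piwil2 (441 and 309 against 270 and 373 CPM) were not called. Tdrd6, at 0 UMIs in the TO cells of the cluster itself, had 12 and 4 UMIs in the TO cells assigned to it, 44.1 and 16.9 against 118 and 59.4 CPM, and was not called, so the bound above holds for the cluster and not for the assigned cells. By the same assignment, the whole leptotene and zygotene stage had 6 of 9 members lower, against 14.6% of all genes. The part of progress within the stage in the lower levels of TOs was not tested otherwise.

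**Figure D3:**
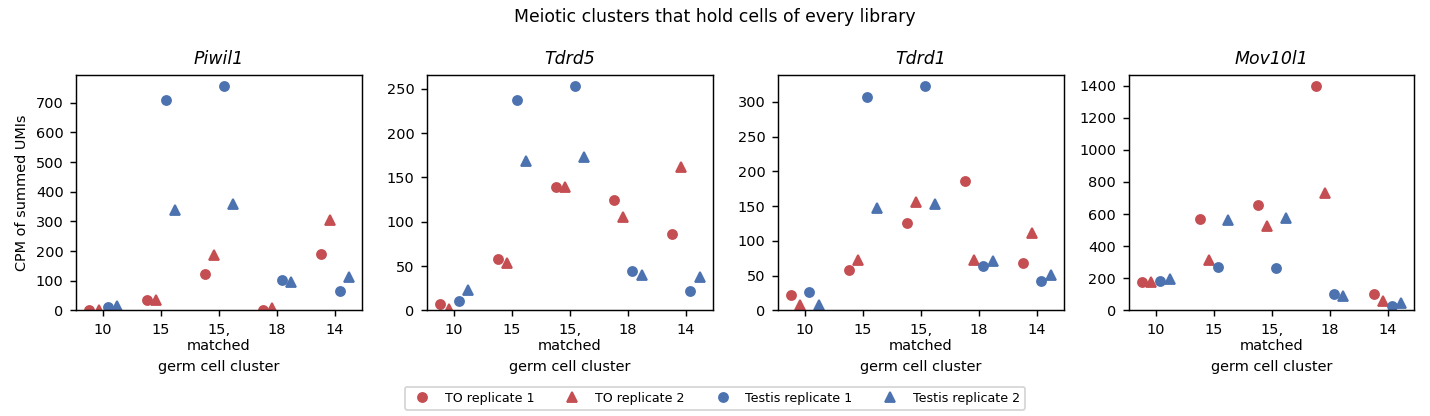
CPM (linear axes from 0) of Piwil1, Tdrd5, Tdrd1 and Mov10l1 in the meiotic clusters that hold at least 10 cells of every library, with 1 point for each library. "15, matched" holds the cells assigned to cluster 15 by correlation. In cluster 15 the testis libraries lie above the TO libraries for Piwil1, Tdrd5 and Tdrd1, and in cluster 14 the TO libraries lie above for Piwil1 and Tdrd5.

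In pachytene spermatocytes, Mov10l1 was higher in TOs (log2 fold change 3.24, SE 0.61, edgeR adjusted p = 0.00225) and Tdrd6 lower (57.5 and 49.3 against 158 and 205 CPM, log2 fold change -2.39, SE 0.60, adjusted p = 0.00929). These were 1 of 9 members tested against 5.23% of genes higher and 1 of 9 against 4.81% lower. Piwil2 (log2 fold change 2.00, adjusted p = 0.0173), Tdrd5 (1.60, adjusted p = 0.0407), Tdrd9 and Tdrd1 had both TO libraries above both testis libraries without passing the threshold. The fits without TO replicate 1 and without TO replicate 2 called 3 and 5 members, and those without testis replicate 1 or testis replicate 2 called 0. No member was called either with background subtraction, with no upper limits on genes and UMIs, by correlation or with the UMIs per somatic cell taken off, under which the log2 fold change of Mov10l1 was 3.43, 1.59, 1.32 and 3.51. The cells of this stage came from different clusters. Cluster 16 held 59.0% of them in TO replicate 1 and 9.68% in TO replicate 2, and clusters 18 and 11 held 38.7% and 35.5% in TO replicate 2, whereas clusters 4 and 6 held 22.9% and 36.3% in testis replicate 1 and 41.8% and 21.1% in testis replicate 2. Dmc1 was at 23.9 and 142 CPM in TOs against 3.06 and 5.66 CPM in testes, and somatic markers summed to 2615 and 427 against 103 and 98.3 CPM. The part of these in the result was not tested.

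Cluster 18, a pachytene cluster with 18 and 12 TO cells and 118 and 148 testis cells, had Mov10l1 at 1400 and 728 CPM in TOs and at 105 and 90.4 CPM in testes (log2 fold change 2.91, SE 0.62, edgeR adjusted p = 0.00049). It was the 1 of 9 members higher, against 12.4% of all genes. Piwil1 was lower (0 and 8.09 against 101 and 96.1 CPM, log2 fold change -4.20), and Tdrd6 with 0 UMIs in both TO libraries was at least 8.53-fold lower, so that 2 of 9 were lower against 22.7% of all genes. Tdrd6 had a mean of 163 CPM in the testis cells of this cluster and 52.1 CPM in somatic cells of the testes. With the UMIs per somatic cell taken off, Mov10l1 (log2 fold change 3.02) and Piwil1 (-3.54) were called and Tdrd6 was not. Somatic markers summed to 3609 and 316 CPM in the TO cells of this cluster. Without testis replicate 1, and likewise without testis replicate 2, 1 member was called.

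In a small group of TO cells, Piwil1 and Tdrd5 were higher than in testes. Cluster 14, left unnamed and led by Pabpc6, Aurka and Ccna1, of which Aurka and Ccna1 act in the meiotic divisions, held 16 and 18 TO cells and 259 and 243 testis cells. In it Piwil1 was at 189 and 303 CPM in TOs (11 and 30 UMIs) and 64.3 and 113 CPM in testes (log2 fold change 1.39, SE 0.39, edgeR adjusted p = 0.00974), and Tdrd5 was at 86.0 and 162 against 21.3 and 37.6 CPM (log2 fold change 2.02, SE 0.54, adjusted p = 0.00664). Tdrd6 was at 189 and 172 against 203 and 231 CPM, below the testis values by less than the threshold (-0.43, adjusted p = 0.555), and Mael was at 1015 and 818 against 608 and 519 CPM. Thus 2 of 9 members tested were higher and 0 lower, against 2.24% of all genes higher. Somatic markers summed to 1514 and 303 CPM in the TO cells of this cluster against 50.3 and 51.9 CPM in testes, and assignment by correlation left 2 and 12 TO cells in it. The part of these in the result was not tested. The call of Piwil1 was lost without TO replicate 1, TO replicate 2 or testis replicate 1, and 0 members were called without TO replicate 2 or without testis replicate 1. Ldhc, a pachytene marker, was at 6091 and 4868 against 6823 and 5658 CPM in this cluster.

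Round spermatids gave 0 called members of 9 tested by edgeR or DESeq2, against 8.73% of the 13517 genes tested that were called in either direction. The TO sums rest on 24910 and 61514 UMIs. Piwil1 had 0 UMIs in the 12 and 14 TO cells, where 3 UMIs would amount to 34.7 CPM, and stood at 16.1 and 24.0 CPM in testes, so a difference was not detectable at this depth. An unadjusted p under 0.05 was found for 3 of 9 members. Tdrd9 was at 401 and 276 CPM in TOs (10 and 17 UMIs) and 60.2 and 83.2 CPM in testes without passing the threshold (edgeR adjusted p = 0.109). All genes together were shifted by a median log2 fold change of -0.99 in this stage.

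The order of stages within each condition was tested in 1 fit with the library as a block. From undifferentiated to differentiating spermatogonia, Piwil4 fell by 3.60 on the log2 scale in testes (SE 0.63, edgeR adjusted p = 2.89e-05) and fell by 3.41 in TOs (SE 0.59, adjusted p = 1.15e-05), and Tdrd5 fell by 1.96 and 2.68. Tdrd1 fell in TOs by 1.03 and changed by -0.73 in testes without a call. The counts of members lower were 2 of 10 in testes, against 4.1% of the 17182 genes tested, and 3 of 10 in TOs, against 6.59%. The difference between the conditions was called for 0 members by edgeR or DESeq2, with an unadjusted p under 0.05 for 1 of 10.

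The step into the clusters named leptotene and zygotene spermatocytes set the conditions apart. In testes these included the cells of cluster 15 with high Ldhc, and Piwil1 in cluster 10 of the testes stood at 10.9 and 14.7 CPM, beside 21.3 and 22.1 CPM in differentiating spermatogonia. In testes 8 of 10 members rose, against 11.6% of all genes. Piwil1 rose by 4.25 on the log2 scale (SE 0.32, edgeR adjusted p = 6.47e-16), Tdrd5 by 2.78 and Tdrd1 by 1.76, and Piwil2, Mael, Ddx4, Tdrd9 and Mov10l1 rose by 1.55 to 1.08. By DESeq2 4 members were called in testes. Mael, Ddx4, Tdrd9 and Mov10l1 then rose by 0.92, 0.78, 0.71 and 0.67, below the fold threshold. In TOs 0 of 10 rose by edgeR or DESeq2, against 7.14% of all genes, 2 of 10 had an unadjusted p under 0.05, and the values ranged from 0.91 for Piwil1 to -0.74 for Tdrd6, with Piwil4 at 0 UMIs after the step. The difference between these steps, TO minus testis, was called for 5 of 10 members, all lower, against 1.45% of all genes. It was -3.34 for Piwil1 (SE 0.66, adjusted p = 0.00103), -2.72 for Tdrd5 (SE 0.46, adjusted p = 0.000181), -2.25 for Tdrd1, -1.76 for Piwil2 and -1.56 for Tdrd9. For Mov10l1 (-0.85), Ddx4 (-0.84) and Mael (-0.57) the difference did not pass the threshold. It was called for 0 members without TO replicate 1, without testis replicate 1 or with no block for the library, for 3 without testis replicate 2 and for 3 by DESeq2. Mybl1, which encodes A-MYB, a transcription factor of pachytene piRNA loci and of several genes of this pathway, rose in both conditions, by 3.55 in testes and 4.02 in TOs, with no called difference (0.47, SE 0.47, adjusted p = 0.677). Mybl1 stood at 115 and 134 CPM in leptotene and zygotene spermatocytes of TOs and at 93.6 and 160 CPM in those of testes.

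The next step, into pachytene spermatocytes, ran in the other direction. In testes it started from cells of which 40.4% and 55.7% were of cluster 15, with high Ldhc. From cluster 10 of the testes to their pachytene spermatocytes, mean CPM were 12.8 and 64.7 for Piwil1 and 16.9 and 29.2 for Tdrd5. For Mov10l1 they were 189 and 35.1, and for Piwil2 87.3 and 56.5. The part of cluster 15 in the falls and differences that follow was not tested. In testes Mov10l1, Piwil1, Tdrd5 and Piwil2 fell by 2.54, 1.64, 1.51 and 1.37, which were 4 of 10 members against 19.8% of all genes lower, and Tdrd6 rose by 1.85, 1 of 10 against 34.6% higher. In TOs 6 of 10 members rose, against 13.2% of all genes, namely Tdrd6 by 4.61, Piwil1 by 3.21, Tdrd5 by 2.99, Tdrd1 by 2.00, Tdrd9 by 1.60 and Piwil2 by 1.59. The difference between these steps was higher in TOs for 7 of 10 members, against 5.85% of all genes, with 4.85 for Piwil1 (SE 0.56, edgeR adjusted p = 4.74e-09), 4.50 for Tdrd5, 3.36 for Mov10l1, 2.96 for Piwil2, 2.89 for Tdrd1, 2.76 for Tdrd6 and 1.79 for Tdrd9. Without TO replicate 1, which held 83 TO pachytene cells against 31 in TO replicate 2, 2 members rose in TOs and the difference was called for 4. From pachytene spermatocytes to round spermatids, Piwil1, Piwil2, Tdrd5 and Mov10l1 fell in testes by 1.44 to 1.39, 4 of 10 against 7.26% of all genes. In TOs Piwil2, Tdrd1, Tdrd5 and Mov10l1 were called lower, 4 of 10 against 3.73%, on sums with 0 to 7 UMIs of each gene in round spermatids, and the difference between the conditions was called for 0 members by edgeR or DESeq2, with an unadjusted p under 0.05 for 5 of 10.

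Early against pachytene factors were set side by side as the log2 ratio of the UMIs of Piwil2 and Piwil4 to those of Piwil1 and Tdrd6 in each library. Over all germ cells the ratio stood at 2.65 and 2.47 in the TO replicates, against -2.08 and -1.85 in the testis replicates. Within each TO library the early factors thus had more UMIs than the pachytene factors, and within each testis library fewer. UMIs of the early factors numbered 887 and 654 in TOs and 1551 and 1710 in testes. These sums mix the stages, and TOs held few cells from pachytene onwards. The difference in the mean ratio was 4.53. An exact permutation test, two-sided, cannot go below p = 0.333 with 2 libraries in each condition, and this was the p here and in each stage. Within undifferentiated spermatogonia the ratio was 3.36 and 3.50 against 1.15 and 1.38, and within differentiating spermatogonia 3.74 and 4.25 against 0.28 and 0.54. The 2 TO libraries lay above the 2 testis libraries in both. In spermatogonia the pachytene factors of the testes were at the level of somatic cells, and with the UMIs per somatic cell taken off the difference was 0.73 in undifferentiated and 2.10 in differentiating spermatogonia.

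In leptotene and zygotene spermatocytes the ratio stood at 3.58 and 3.18 in TOs against -1.42 and -0.09 in testes, and it was 4.36 higher in TOs with those UMIs taken off. In pachytene spermatocytes it was 0.94 and 1.91 against -2.23 and -2.03. Cells assigned by correlation gave smaller differences, of 2.84 in leptotene and zygotene and 2.02 in pachytene spermatocytes, and with no upper limits on genes and UMIs the difference was 1.11 in pachytene spermatocytes and 2.45 over all germ cells. In cluster 14 the ratio was negative in every library, at -1.46 and -2.38 in TOs and -2.84 and -2.60 in testes. In round spermatids TO replicate 1 had 0 UMIs of the early factors, and no ratio was computed.

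**Figure D4:**
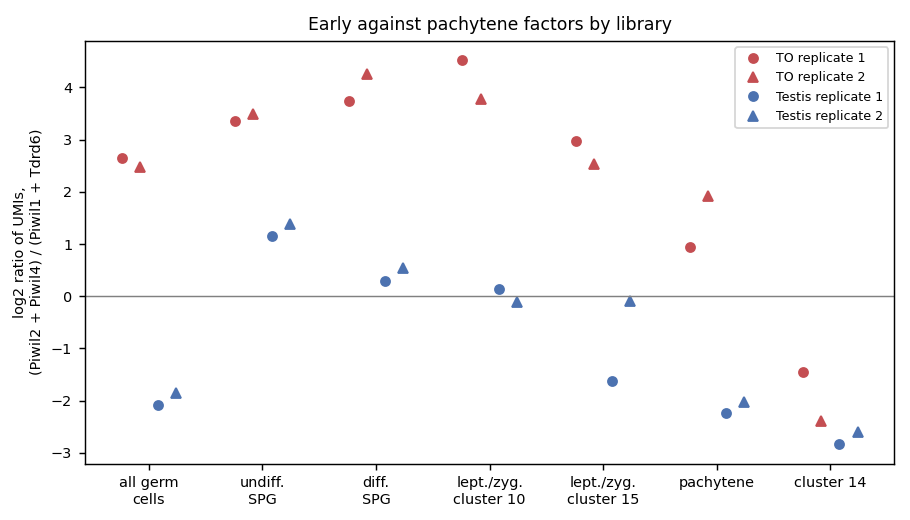
Log2 ratio of Piwil2 plus Piwil4 UMIs to Piwil1 plus Tdrd6 UMIs, with 1 point for each library, over all germ cells, in stages and in single clusters. The line marks equal UMIs. TO points lie above the line in all groups but cluster 14, where all 4 libraries lie under it.

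The share of cells with a UMI was compared after each cell had been thinned to 1500 UMIs. Piwil1 was seen in 1.53% of 196 and 1.61% of 249 leptotene and zygotene spermatocytes of TO replicates 1 and 2 (exact 95% intervals 0.317 to 4.41 and 0.439 to 4.06), and in 17.2% of 384 and 10.6% of 379 of testis replicates 1 and 2 (13.5 to 21.3 and 7.65 to 14.1). Shares in somatic cells were 0.435% and 0.163% in TOs and 3.32% and 2.68% in testes. Both testis libraries were above the shares of their own somatic cells, and the difference of -12.3 percentage points had the smallest p that 2 against 2 allows (exact permutation test, p = 0.333). Without thinning the shares were 2.53% and 3.61% against 25.3% and 24.3%. Intervals cover counting error only.

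Piwil2 was seen in 11.2% and 11.2% of these spermatocytes of TOs and in 18.8% and 28.5% of those of testes after thinning. In undifferentiated spermatogonia the order was reversed, with 19.5% and 16.8% in TOs and 15.3% and 9.38% in testes, and the intervals of all 4 libraries overlapped (14.5 to 25.2, 10.3 to 25.3, 10.4 to 21.3 and 3.52 to 19.3). Tdrd6 was seen in 6.56% and 4.69% of undifferentiated spermatogonia of the testes, below the 9.77% and 8.48% of their somatic cells. In leptotene and zygotene spermatocytes of the testes Tdrd6 was seen in 12.8% and 9.76%, beside the same shares of somatic cells, and in 0.510% and 0.402% of those of TOs. Piwil4 was seen in 3.10%, 3.74%, 3.28% and 6.25% of undifferentiated spermatogonia of TO replicates 1 and 2 and testis replicates 1 and 2, with overlapping intervals and 0 to 0.191% in somatic cells.

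The genes with the pattern most like that of a member were named by Pearson's r of log2(CPM + 1) over 22 sums of 1 library and stage, among 8578 genes. These sums share libraries and depth, so r is a description. Piwil4 was most like Egr4, Erg, Trim71, Zbtb16 and Hivep2 (r = 0.97 to 0.91), of which Zbtb16 is a naming marker of undifferentiated spermatogonia. Piwil2 was most like Srek1, Add3, Dennd4c, Mark2 and Edc4 (0.98 to 0.97), Piwil1 most like Gm12648, Tcam1, Spats1, 1700006A11Rik and Pomt1 (0.93 to 0.90), and Tdrd6 most like Ccdc105, Spink2, Cfap206, Cfap161 and 4931417E11Rik (0.97 each).

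Of 21 other genes of the piRNA pathway, 4 were lower and 1 higher in TOs among the 18 tested in leptotene and zygotene spermatocytes, beside 20.3% of all genes lower and 6.46% higher, so the shares were close to those of all genes. Henmt1, the methyltransferase of piRNA 3′ ends, was at 4.74 and 5.02 CPM in TOs against 25.2 and 30.4 CPM in testes (log2 fold change -2.55, SE 0.46, edgeR adjusted p = 0.000872). Tcfl5, a transcription factor of spermatocytes, and Pld6, the mitochondrial nuclease of piRNA biogenesis, had log2 fold changes of -2.23 and -1.92. Tex15, a nuclear partner of PIWIL4, was higher by 1.39. Tcfl5 was at 109 and 79.7 CPM in somatic cells of the testes. The median was -0.31 for the 18 genes tested, beside -1.53 for the members. Of 8 genes of the miRNA machinery, whose Argonaute proteins are relatives of the PIWI proteins, Ago2 was lower (-2.51) and Ago3 higher (1.31), with a median of 0.17.

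In the other comparisons these lists gave calls in both directions. Among other pathway genes, 0 were higher and 1 lower of 19 tested in undifferentiated spermatogonia, where 0.693% of all genes were higher and 9.65% lower. In differentiating spermatogonia 0 and 1 of 18 were called, beside 1.05% and 12.9%, and in round spermatids 0 and 2 of 18, beside 2.09% and 6.64%. In pachytene spermatocytes 3 and 0 of 20 were called, beside 5.23% and 4.81%, and in cluster 14 it was 3 and 0 of 15, beside 2.24% and 1.04%. In pachytene spermatocytes Btbd18 and Fkbp6 were higher in TOs (log2 fold changes 3.38 and 2.63), as were Dicer1 and Ago1 of the miRNA machinery (4.59 and 3.72), where 3 of 8 were higher. In cluster 14 Fkbp6, Tdrkh and Stk31 were higher by 2.67, 2.37 and 1.87. From differentiating spermatogonia to leptotene and zygotene spermatocytes 8 of 20 other pathway genes rose and 0 fell in testes, where 11.6% of all genes rose and 8.3% fell, while 4 rose and 4 fell in TOs, beside 7.14% and 7.51%. Stk31, a Tudor domain protein, and Gpat2, a mitochondrial partner of PIWIL2, rose in both conditions, by 2.43 and 1.61 in testes and by 1.84 and 1.53 in TOs, while Henmt1 and Morc1 fell by 2.43 and 2.54 in TOs. The difference of this step was called lower for Henmt1 (-2.83) and Pld6 (-2.50), 2 of 20 beside 1.45% of all genes. Over all germ cells, 6 of 20 were higher and 5 lower, and 5 of 8 miRNA machinery genes were higher and 1 lower, where 17.7% of all genes were higher and 31.3% lower.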

How the data were processed

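Single cells of 2 TO and 2 testis libraries were profiled. The authors deposited raw UMI counts per gene and barcode, made with Cell Ranger 7.1.0 against mm10 by the submitters' processing notes, without normalization. Gene positions came from the GENCODE annotation of GRCm38. The members and lists were chosen with earlier results of these data known.

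Scrublet (scanpy 1.11.5) scored doublets, of which the top 0.8% per 1000 barcodes were dropped. The filter kept cells of 1000 to 5000 genes, up to 20000 UMIs and up to 10% of UMIs from mitochondrial genes. Libraries were aligned with a purpose-written implementation of Harmony and clustered with Leiden (leidenalg 0.10.2, igraph 0.11.9, resolution 1, 20 neighbours, 2000 variable genes without the listed pathway and miRNA machinery genes, 30 principal components, 20 for germ cells). A cluster took the name of its best-scoring type if 3 or more of that type's markers each reached 10% of cells, and if its 10 leading genes held no larger number of another type's markers. The scoring was revised after clusters had been seen, and unnamed clusters stayed in the sums over all germ cells. Because names were rebuilt, they can differ from the study's.

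UMIs were summed per library and stage of at least 10 cells in every library and compared by the quasi-likelihood test of edgeR 4.0.16 (R 4.3.3, TMM, filterByExpr). Stage steps came from 1 joint fit with library as a block. DESeq2 1.42.0 and other filters, resolutions, backgrounds and left-out replicates were alternatives, and the fits were tested on simulated data. Of simulated 4-fold changes, 79.1% were called in undifferentiated and 86.6% in differentiating spermatogonia, and 94% in leptotene and zygotene spermatocytes. The share was 44.8% in pachytene spermatocytes, 13.4% in round spermatids and 32% for the difference in the step to leptotene and zygotene spermatocytes. A gene that was not called can therefore still differ. All members were named; other pathway and miRNA machinery genes were named where called, at most 4 by size of fold in each direction of a comparison, and the 5 genes most like Piwil1, Piwil2, Piwil4 and Tdrd6 were taken among genes with a mean of at least 20 CPM. Other software was Python 3.11.15, numpy 2.4.6, scipy 1.17.1, pandas 2.3.3 and matplotlib 3.10.9. Totals of 74988295 to 119966959 UMIs per library set the precision, and intervals and floors cover counting error only.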

Additional observations from a re-analysis of the deposited data

Results flagged for a closer look

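The stage steps of several members differed between TOs and testes by the interaction term of the joint edgeR fit, each value being the step in TOs minus the step in testes on the log2 scale. From differentiating spermatogonia to leptotene and zygotene spermatocytes the difference was -3.34 for Piwil1, -2.72 for Tdrd5, -2.25 for Tdrd1, -1.76 for Piwil2 and -1.56 for Tdrd9. From leptotene and zygotene to pachytene spermatocytes it was 4.85 for Piwil1, 4.50 for Tdrd5, 3.36 for Mov10l1, 2.96 for Piwil2, 2.89 for Tdrd1, 2.76 for Tdrd6 and 1.79 for Tdrd9. Both steps share the sums of leptotene and zygotene spermatocytes, so the values of opposite sign for Piwil1, Tdrd5, Tdrd1, Piwil2 and Tdrd9 are not independent of each other. Of the cells in these sums, 40.4% and 55.7% in testes and 15.2% and 15.7% in TOs were of cluster 15. The part of this in the values was not tested. No group held 4 or more libraries, and single libraries were therefore not tested as outliers.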

How the results depend on the processing

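Of 209 counts of called members under other settings, 147 were within 1.5 times the reported count, 57 were lower and 5 higher, and of 666 values of called members 506 kept their call, 160 lost it and 0 changed sign. All 79 alternatives of the early to pachytene ratio kept its direction.
With no upper limits on genes and UMIs, 2 members were called over all germ cells, 1 in undifferentiated spermatogonia, 1 in leptotene and zygotene and 0 in pachytene spermatocytes. With the UMIs per somatic cell taken off, chosen after seeing the data, the counts were 2 over all germ cells, 0 in both kinds of spermatogonia, 0 in pachytene spermatocytes, 1 in cluster 10 and 2 in cluster 15. With no filter on low counts, with background subtraction or by correlation, 1 was called in undifferentiated spermatogonia, and the last 2 gave 0 in pachytene spermatocytes. Correlation gave 1 in cluster 15, and resolution 2 gave 3 in leptotene and zygotene spermatocytes. A joint fit over all stages called 1 in undifferentiated spermatogonia, 5 in pachytene spermatocytes and 3 in round spermatids, and a threshold of 0.05 with no fold limit 4 and 1 in the last 2. For the step from differentiating spermatogonia, DESeq2 called 4 in testes and 3 for the difference, and no library block gave 5 and 0. DESeq2 called 2 from pachytene spermatocytes to round spermatids in TOs. The cause was not tested.
Leaving out 1 library gave 2 to 4 members over all germ cells, 1 to 2 in undifferentiated and 1 to 3 in differentiating spermatogonia, 0 to 8 in leptotene and zygotene and 0 to 5 in pachytene spermatocytes, 1 in cluster 10, 0 to 1 in cluster 14, 2 to 5 in cluster 15 and 1 to 3 in cluster 18. For the steps it gave 1 to 2 in testes and 1 to 3 in TOs among spermatogonia, 3 to 8 in testes and 0 to 4 for the difference to leptotene and zygotene spermatocytes, 4 to 6 in testes, 2 to 6 in TOs and 4 to 7 for the difference to pachytene spermatocytes, and 2 to 4 in TOs to round spermatids.
The replicate numbers were not used as pairs, since no source ties them and the differences between replicates correlated at 0.0898 over 6752 genes. With the replicate block, 1 member was called in pachytene spermatocytes, and the other counts over all germ cells and by stage were as reported.
Without thinning, the difference in the share of cells with a Piwil4 UMI turned to 0.179 percentage points in undifferentiated and -0.0630 in differentiating spermatogonia. Pachytene and round stages without Harmony, and round spermatids at resolution 2 or from cells of at least 3000 UMIs, had fewer than 10 cells in a library and were not fitted.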

Other observations

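Tdrd1 and Piwil2 were higher in Sertoli cells than in Leydig cells of the same library. Tdrd1 was at 58.0 and 52.2 CPM in Sertoli cells of testis replicates 1 and 2 (149 and 59 UMIs) and at 8.06 and 3.54 CPM in their Leydig cells, and at 8.01 and 5.11 against 1.42 and 0.427 CPM in TO replicates 1 and 2. Piwil2 was at 13.9 and 6.45 CPM in Sertoli cells of TOs and at 12.1 and 21.2 CPM in those of testes, against 2.35 and 1.01 CPM and 5.84 and 2.65 CPM in Leydig cells. Sertoli cells exceeded Leydig cells for both genes in 4 of 4 libraries. This was not particular to them, since in testis replicates 1 and 2 Piwil1 was at 27.3 and 26.5 CPM in Sertoli and at 16.1 and 7.95 CPM in Leydig cells, Mael at 142 and 106 against 89.0 and 55.4 CPM and Ddx4 at 87.3 and 85.8 against 55.9 and 41.5 CPM. Other somatic cells of the testes held Piwil2 at 10.7 and 8.74 CPM. These values were picked after they had been seen and were not tested.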
